A study of Sus scrofa with 6 samples.

Results

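The miR-148 and miR-152 seed family was described in small RNA libraries made from pig oocytes after their cumulus cells had been stripped off. Its members were the 5 listed mature miRNAs that carry the names ssc-miR-148a-3p, ssc-miR-148a-5p, ssc-miR-148b-3p, ssc-miR-148b-5p and ssc-miR-152 (ssc for the pig, Sus scrofa, left off from here on), out of 326 listed names in all. They were taken by name and not by a cut on their values, though earlier results of these data were known. The oocytes came from ovaries of prepubertal gilts collected at an abattoir, with no treatment, and no strain is given. The LO group held oocytes of large follicles, 3 to 6 mm wide, drawn through a 20-gauge needle into a 10 mL syringe. The SO group held oocytes of small follicles, less than 2 mm wide, drawn through a 23-gauge needle into a 5 mL syringe, so follicle size and the way of aspiration differed together and cannot be told apart. Each group had 3 libraries, biological replicates by the series design. The number of animals and oocytes per library is not given in the labels, so p-values measure only the spread between these libraries.

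A microRNA (miRNA) guides an Argonaute protein to messenger RNAs, mostly by pairing of its seed, bases 2 to 8 from the 5′ end, with a site in the target. Members that share a seed can therefore act on overlapping sets of messenger RNAs. miR-148a, miR-148b and miR-152 are known as repressors of the DNA methyltransferases DNMT1, which maintains DNA methylation when cells divide, and DNMT3B, which sets new methylation. In the mouse, repression by miRNAs is known to be weak in fully grown oocytes.

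The sequences below are the deposited mature sequences of the 3 members of the seed family, shown because their shared seed defines the family and their other bases tell them apart. Capitals mark the seed, and letters are DNA letters as in the deposited tables.
miR-148a-3p: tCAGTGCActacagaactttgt
miR-148b-3p: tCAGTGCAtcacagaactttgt
miR-152: tCAGTGCAtgacagaacttgg
No other listed name carried the seed CAGTGCA, whose complement TGCACTG is the matching 7-base site in a target. Counted from 1 at the 5′ end, miR-148a-3p and miR-148b-3p differed by C9T and T10C, the first member of the pair giving the first base. miR-148a-3p and miR-152 differed by C9T, T10G and T20G over 21 aligned bases, and miR-148b-3p and miR-152 by C10G and T20G. Each member thus differed from its nearest listed name by 2 bases over the first 20. Whether the authors' alignment let mismatches through is not stated in the labels, so some reads may have been shared between these names.

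The 5p arms are the strands cut from the other side of the same hairpins and are usually degraded. They are shown because the arms are compared below, again with bases 2 to 8 in capitals.
miR-148a-5p: aAAGTTCTgagacactccgact
miR-148b-5p: gAAGTTCTgttatacactcaggc
Both 5p arms carried the seed AAGTTCT, which no other listed name had. Bases 1 to 9 of miR-148a-5p were the reverse complement of bases 12 to 20 of miR-148a-3p, and bases 2 to 10 of miR-148b-5p that of bases 11 to 19 of miR-148b-3p. The 2 seeds therefore belong to different target sets, and the arms were kept apart. No 5p arm of miR-152 was analysed here.

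In the RefSeq pig gene table (assembly Sscrofa11.1, another build than the Sscrofa10.2 of the submitters' processing notes, so no coordinates are given), all 3 miRNA genes were matched by name. MIR148B lies within the span of COPZ1 and MIR152 within that of COPZ2, paralogous genes for a subunit of the COPI vesicle coat. MIR148A lies within no listed gene, between 2 genes for long noncoding RNAs.

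The deposited value is a number of reads per 1000000 reads (RPM) of a total that the authors chose for each library. That total was 461505 to 1424130 reads in LO and 1915218 to 2187987 in SO, of which 7755 to 42541 and 44964 to 55230 were reads of listed miRNAs. Each LO library was shallower than each SO library, and LO replicate 2 was the shallowest. A count of 0 allows up to 6.50 RPM there and up to 1.37 RPM in the deepest library, SO replicate 3, taking 3 reads as the limit. Intervals and limits cover counting error only, since the labels do not say whether reads or molecules were counted. Marker miRNAs of 7 other cell types, 29 names of which 27 had reads, summed to 438 to 1360 RPM in LO and 471 to 929 RPM in SO. The oocyte itself has no defining miRNA list here, so the label was checked only through these markers of other cells.

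The family was one of the main miRNA families of these oocytes, and almost all of it was miR-148a-3p. The 3 members with the shared seed summed to 1405, 1367 and 1900 RPM across LO replicates 1 to 3 and to 2328, 1475 and 1294 RPM across SO replicates 1 to 3. SO held both the highest and the lowest of these sums, and the groups overlapped. The means were 1557 ± 297 RPM over LO and 1699 ± 552 RPM over SO (n = 3 per group, SD), a difference in mean log2 of -0.0945 (two-sided exact permutation p = 0.8). The smallest p that 3 libraries against 3 can give is 0.1, so no exact test here could pass 0.05. Without SO replicate 1 the difference was 0.16. With TMM scaling it was -0.34 and with DESeq2 size factors -0.38 (two-sided exact permutation p = 0.4 and 0.5). Of all reads of listed miRNAs, the family took 4.63% to 8.14% in LO and 5.56% to 8.07% in SO.

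Among seed groups with at least 2 listed names and at least 500 reads over the 6 libraries, 13 in number, the CAGTGCA group had the third highest mean level, 1628 RPM. The groups of miR-16 and of let-7 stood above it. Its leading member held 94.7% of its mean RPM, the fifth highest share of the 13. That share was 96.2% for miR-16 in its group of 6 names and 43.8% for let-7a in its group of 8 names. The family was therefore of the kind led by 1 name, as the miR-15 and miR-16 group was and the let-7 group was not.

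miR-148a-3p, the most abundant member, is best known from liver and placenta. It was measured at 1221, 1317 and 1772 RPM across LO replicates 1 to 3 and at 2264, 1416 and 1263 RPM across SO replicates 1 to 3. The lowest value lay in LO and the highest in SO, and the groups overlapped. From 608 to 4337 reads stood behind each value, so the counting interval was narrow. Even in the shallowest library it ran from 1215 to 1426 RPM (95% exact Clopper-Pearson interval). The means were 1437 ± 295 RPM over LO and 1648 ± 539 RPM over SO (n = 3 per group, SD).

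miR-148a-3p was the third most abundant name by its mean over all 6 libraries. It ranked 3 in each library but LO replicate 1, where it ranked 5. miR-16, a cell cycle miRNA, was the next above, with a mean of 3186 RPM, and exceeded miR-148a-3p in each of the 6 libraries. let-7a, of the family that accumulates as cells differentiate, was the next below, with a mean of 1119 RPM. It lay below miR-148a-3p in 5 of 6 libraries, the exception being LO replicate 1, where let-7a reached 1957 RPM. The ranges of miR-148a-3p and let-7a over the libraries overlapped.

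miR-152, the member encoded within COPZ2, came next. It was measured at 142, 45.5 and 102 RPM across LO replicates 1 to 3 and at 47.5, 44.8 and 21.5 RPM across SO replicates 1 to 3. LO replicates 1 and 3 lay above each SO library, while LO replicate 2 lay between SO replicates 1 and 2. The value of LO replicate 2 rests on 21 reads, with an interval of 28.2 to 69.6 RPM that holds the values of both of those SO libraries. The means were 96.6 ± 48.7 RPM over LO and 37.9 ± 14.3 RPM over SO (n = 3 per group, SD). The overlap depended on the scaling. As a percent of the listed miRNA reads, miR-152 took 0.470%, 0.271% and 0.341% across LO replicates 1 to 3. It took 0.165%, 0.191% and 0.0923% across SO replicates 1 to 3, so each LO value lay above each SO value. How many other names were apart on that scaling was not counted. limma on it gave miR-152 a log2 fold change of 1.30 (FDR 0.225), which was no call. Over all 6 libraries miR-152 ranked 37 by its mean RPM.

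miR-148b-3p, the member encoded within COPZ1, was the least abundant of the 3. It was measured at 41.7, 4.33 and 26.0 RPM across LO replicates 1 to 3 and at 16.2, 13.5 and 9.14 RPM across SO replicates 1 to 3. The LO libraries lay on both sides of the SO libraries, with replicates 1 and 3 above and replicate 2 below. LO replicate 2 held 2 reads of it, with an interval of 0.525 to 15.7 RPM. That interval holds the values of SO replicates 2 and 3 and overlaps the interval of SO replicate 1, 11.0 to 23.0 RPM. At this depth the value of LO replicate 2 is thus not clearly apart from any SO library. The means were 24.0 ± 18.8 RPM over LO and 13.0 ± 3.56 RPM over SO (n = 3 per group, SD), and its mean over all libraries ranked 73. The order miR-148a-3p, miR-152, miR-148b-3p was the same in each of the 6 libraries.

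**Figure D1:**
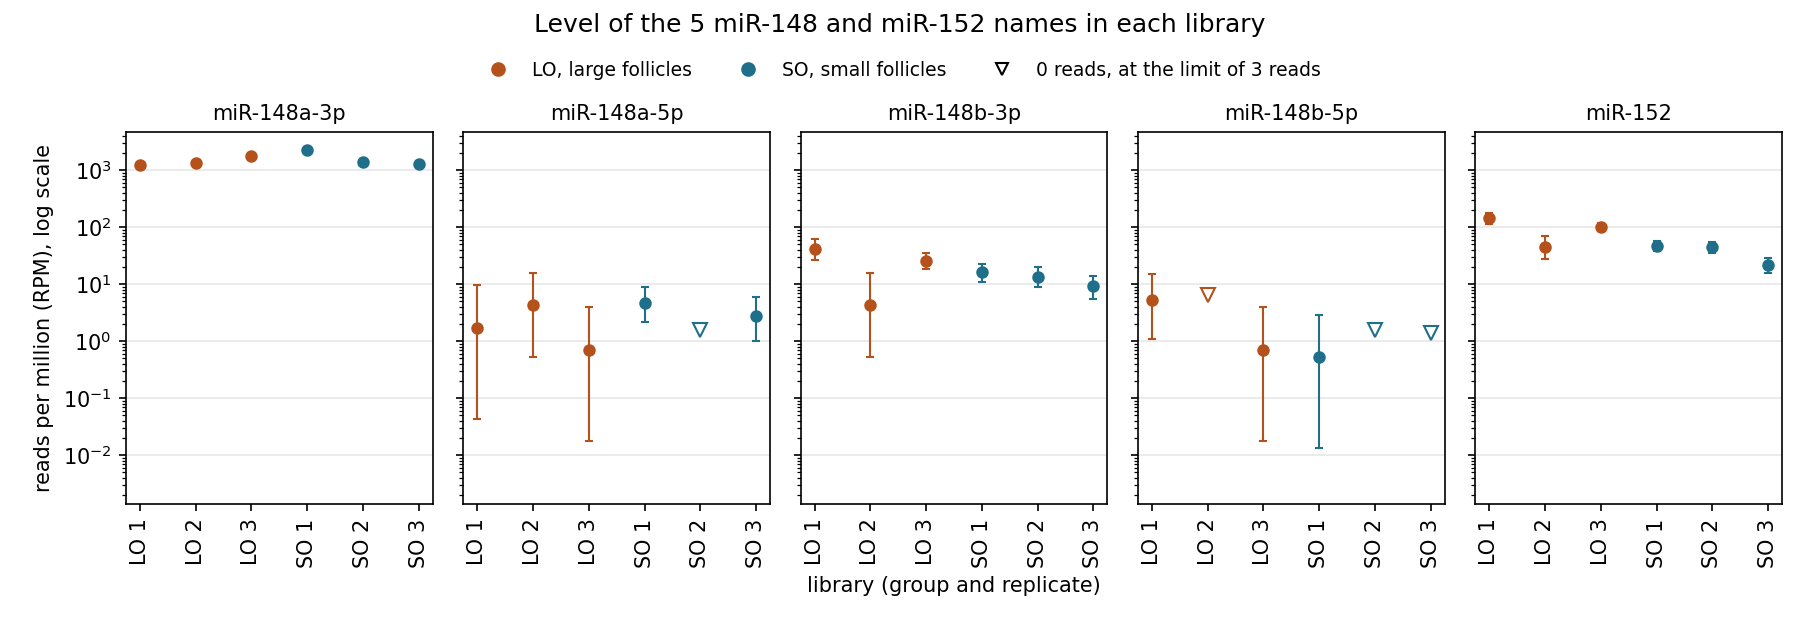
Level of the 5 names in each library, in reads per 1000000 on a log axis, with 3 LO libraries (large follicles) and 3 SO libraries (small follicles). Points are the deposited values, bars are 95% exact Clopper-Pearson intervals of the reads, and open triangles mark 0 reads at the limit of 3 reads; miR-148a-3p lies between 1221 and 2264 RPM throughout, and the 5p arms with reads lie at or under 5.21 RPM.

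The passenger arms were near the limit of detection. miR-148a-5p had 19 reads in all and miR-148b-5p had 5. miR-148a-5p had 1, 2 and 1 reads across LO replicates 1 to 3 and 9, 0 and 6 reads across SO replicates 1 to 3. The SO libraries, which are deeper, held both the most reads and the only library with none. Over all libraries 5p reads made up 0.139% of the 13673 reads of both miR-148a arms (95% exact Clopper-Pearson interval 0.0837% to 0.217%). The 0 of 2718 arm reads in SO replicate 2 allows a share of up to 0.110%, taking 3 reads as the limit. The upper end of its 95% exact Clopper-Pearson interval is 0.136%. By library the share averaged 0.170% ± 0.146 over LO and 0.141% ± 0.122 over SO (n = 3 per group, SD; two-sided exact permutation p = 0.9). The sign of that difference turned without LO replicate 2 (-0.0504 percentage points) and without SO replicate 2 (-0.0420).

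miR-148b-5p had 3, 0 and 1 reads across LO replicates 1 to 3 and 1, 0 and 0 across SO replicates 1 to 3. Its 5 of 145 arm reads gave a share of 3.45% (interval 1.13% to 7.86%), with 3 of the 5 reads in LO replicate 1. That interval lies above the interval of miR-148a, but both pool the reads of all libraries and leave out the spread between libraries. By library, the intervals of the miR-148b and miR-148a shares were apart only in LO replicate 1, at 2.35% to 29.2% and 0.0036% to 0.789%. The arms of miR-148b had too few reads to compare LO with SO. Of the 9 precursors with both arms listed and at least 500 arm reads, miR-148a had the third lowest share of its minor arm. The lowest were miR-146a, with 0 of 1697 reads, and miR-676, with 0.0969%, and the highest was miR-664, with 12.2%.

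LO and SO were then compared name by name. Of the 5 members, miR-148a-3p, miR-148b-3p and miR-152 passed the filter on low counts, as did 104 names in all, and the 5p arms did not. At a false discovery rate (FDR) of 0.05, limma on log2(RPM + 1) called no member and none of the other names (0% of 104). The second smallest unadjusted p of the 104 was that of miR-152, with a log2 fold change of 1.26 (LO minus SO, SE 0.55, 95% interval 0.17 to 2.35, limma FDR 0.763). An unadjusted limma p under 0.05 was found for 4 of the 104 names (3.85%), and miR-152 was the 1 member among them. The log2 fold change of miR-148b-3p was 0.43 (interval -0.86 to 1.71, limma FDR 0.814) and that of miR-148a-3p was -0.17 (interval -0.90 to 0.56, limma FDR 0.861). These standard errors come from a variance trend fitted over abundance rather than from the replicates of each name.

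All tested names had a median log2 fold change of 0.29 on the deposited scaling, with 72 of 104 above 0, and that of the 3 tested members was 0.43, with 2 of 3 above 0. With TMM scaling (limma on log2 CPM, counts per 1000000) the median of all tested names was 0.05, a shift of more than 0.1. On that scaling miR-152 was at 1.02, miR-148b-3p at 0.17 and miR-148a-3p at -0.42. Under each scaling tried with all 6 libraries, miR-152 and miR-148b-3p had higher means in LO and miR-148a-3p a lower one.

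**Figure D2:**
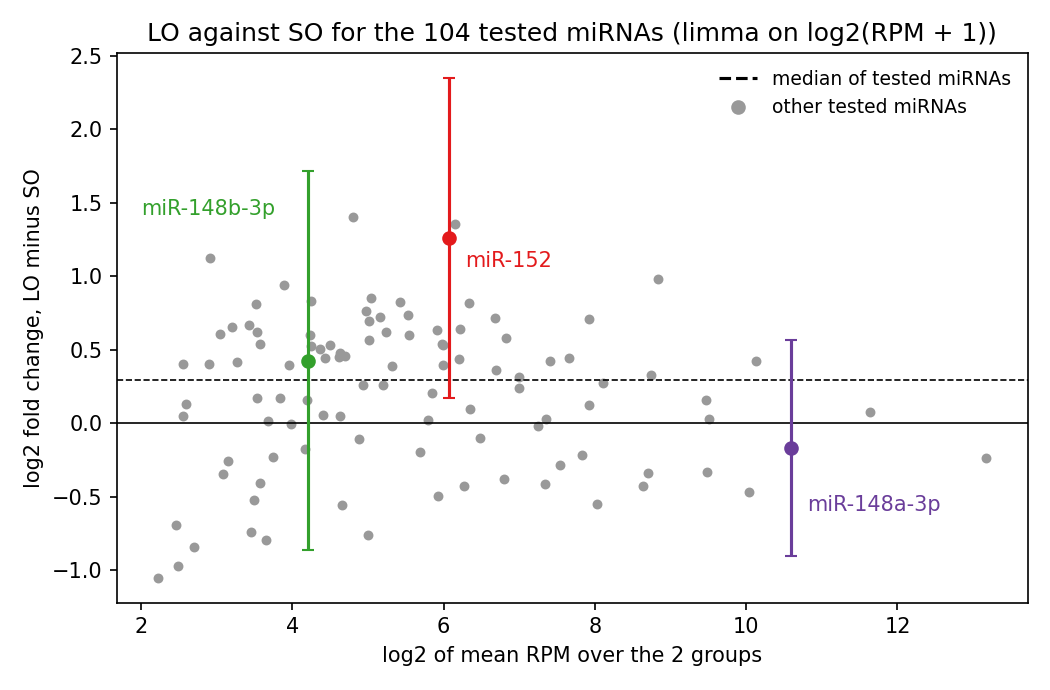
Log2 fold change (LO minus SO) of the 104 tested miRNAs by limma on log2(RPM + 1), against the log2 of their mean RPM. Grey points are other miRNAs, the dashed line is their median together with the members, and bars are the 95% intervals of the 3 members; miR-152 at 1.26 lies near the top, and the intervals of miR-148b-3p and miR-148a-3p include 0.

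On the whole reads recovered from the deposited values, the call of miR-152 depended on the tool and on single libraries. edgeR's quasi-likelihood test with TMM called 2 of 104 names (1.92%), neither of them a member, and gave miR-152 a log2 fold change of 1.01 (FDR 0.0766). limma-voom also called 2 (1.92%), and miR-152 was 1 of them (log2 fold change 1.07, FDR 0.0452). DESeq2 gave it an adjusted p of 0.209. In the limma fit without LO replicate 2, miR-152 was at 1.72 with an FDR of 0.00441. That fit called 18 of 104 names and had a median of 0.62 over all tested names. Without SO replicate 2, edgeR called 4 of 104 names, miR-152 among them (1.27, FDR 0.0455). In no other leave-one-out fit of either tool did miR-152 pass. Over the 24 alternatives its log2 fold change ran from 0.78 to 1.72 and its FDR from 0.00441 to 0.992.

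**Figure D3:**
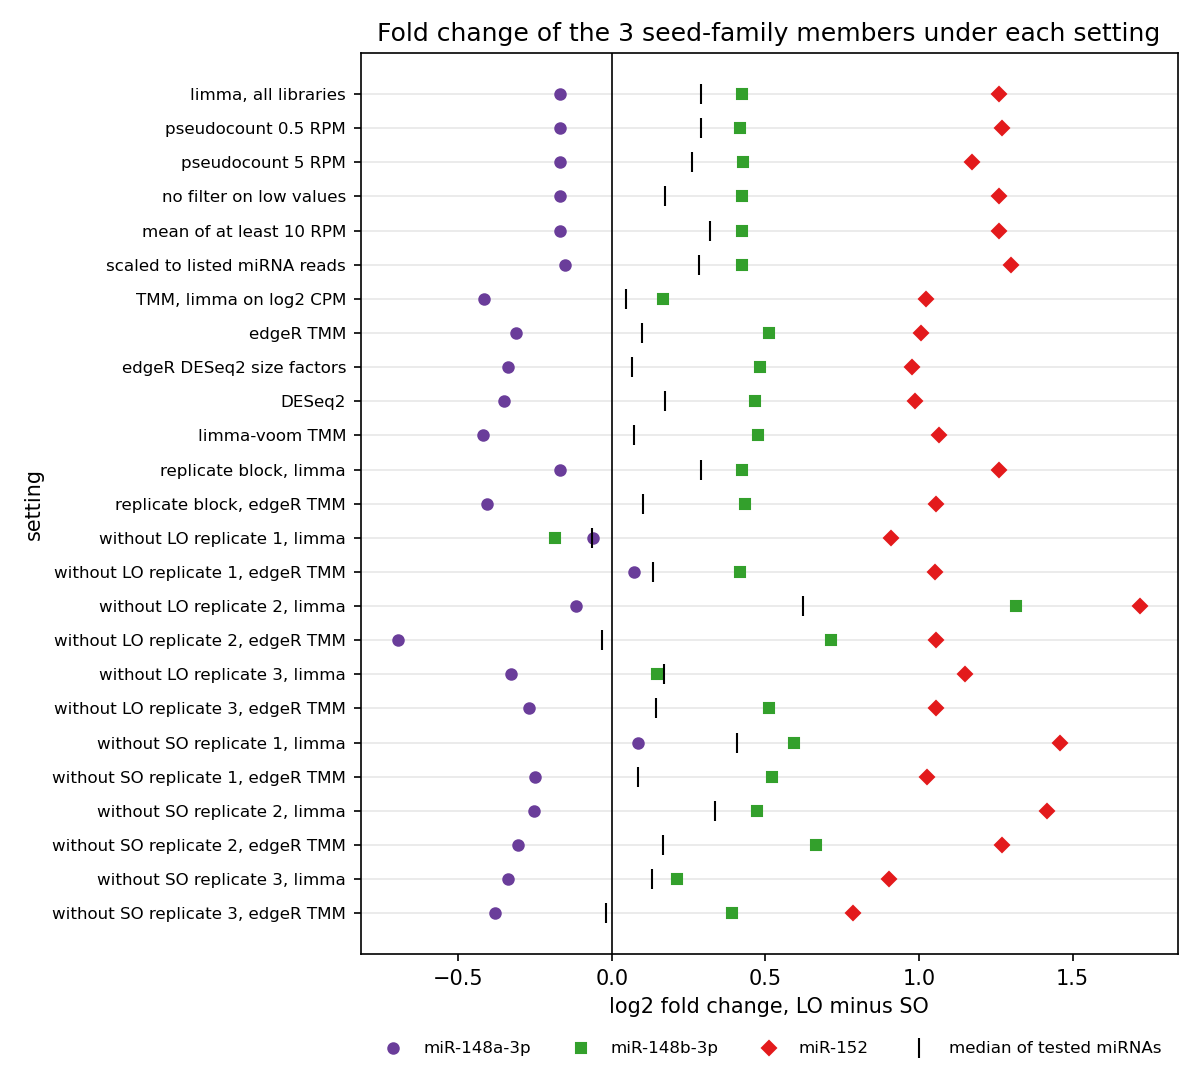
Log2 fold change (LO minus SO) of miR-148a-3p, miR-148b-3p and miR-152 under the reported fit (top line) and 24 alternatives, 1 per line, with the median of the tested miRNAs as a vertical tick. miR-152 lies between 0.78 and 1.72 throughout, while miR-148a-3p and miR-148b-3p fall on both sides of 0.

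The makeup of the family was then compared, since a share or a ratio within a library does not depend on how libraries are scaled to each other. miR-148a-3p held 86.9%, 96.4% and 93.3% of the family's reads across LO replicates 1 to 3 and 97.3%, 96.0% and 97.6% across SO replicates 1 to 3. LO replicates 1 and 3 lay below each SO library, and LO replicate 2 lay between SO replicates 1 and 2. The mean share was 92.2% ± 4.82 over LO and 97.0% ± 0.833 over SO (n = 3 per group, SD), a difference of -4.80 percentage points (two-sided exact permutation p = 0.2). That difference was -2.17 percentage points without LO replicate 1.

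miR-152 held 10.1%, 3.33% and 5.36% of the family's reads across LO replicates 1 to 3 and 2.04%, 3.04% and 1.66% across SO replicates 1 to 3. Each LO share lay above each SO share, by a narrow margin between LO replicate 2 and SO replicate 2. The intervals of these 2 libraries, 2.07% to 5.04% and 2.44% to 3.74%, overlapped. A share of this kind was not worked out for other names, while the ratio to miR-148a-3p below was. In LO replicate 1 there were 8.57 reads of miR-148a-3p for each read of miR-152, and in SO replicate 3 there were 58.8.

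The log2 ratio of miR-152 to miR-148a-3p averaged -4.01 ± 0.87 over LO and -5.47 ± 0.45 over SO (n = 3 per group, SD). The difference was 1.46, a 2.75-fold higher ratio in LO, and the groups did not overlap. Its two-sided exact permutation p was 0.1, the smallest possible, or 0.2 adjusted over the 2 ratios compared and 0.5 over all 5 exact tests. Of the 103 tested names set against miR-148a-3p in this way, 9 (8.74%) had each LO ratio above each SO ratio, miR-152 among them, and 1 (0.971%) had the reverse order. The difference of miR-152 was the fourth largest of the 103, whose median was 0.50. It was 0.998 without LO replicate 1, 1.86 without LO replicate 2 and 1.26 without SO replicate 3.

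The log2 ratio of miR-148b-3p to miR-148a-3p averaged -6.28 ± 1.55 over LO and -6.95 ± 0.24 over SO (n = 3 per group, SD), with groups that overlapped. The difference of 0.67 had a two-sided exact permutation p of 0.6 (0.6 adjusted over the 2 ratios). miR-148b-3p held 2.97%, 0.317% and 1.37% of the family's reads across LO replicates 1 to 3, so LO held both the highest and the lowest share. Without LO replicate 1 the difference was -0.0463, and without LO replicate 2 it was 1.495. With 5 reads added in place of 0.5 it was 1.06 (two-sided exact permutation p = 0.1). There were 2.35 to 10.5 reads of miR-152 for each read of miR-148b-3p.

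**Figure D4:**
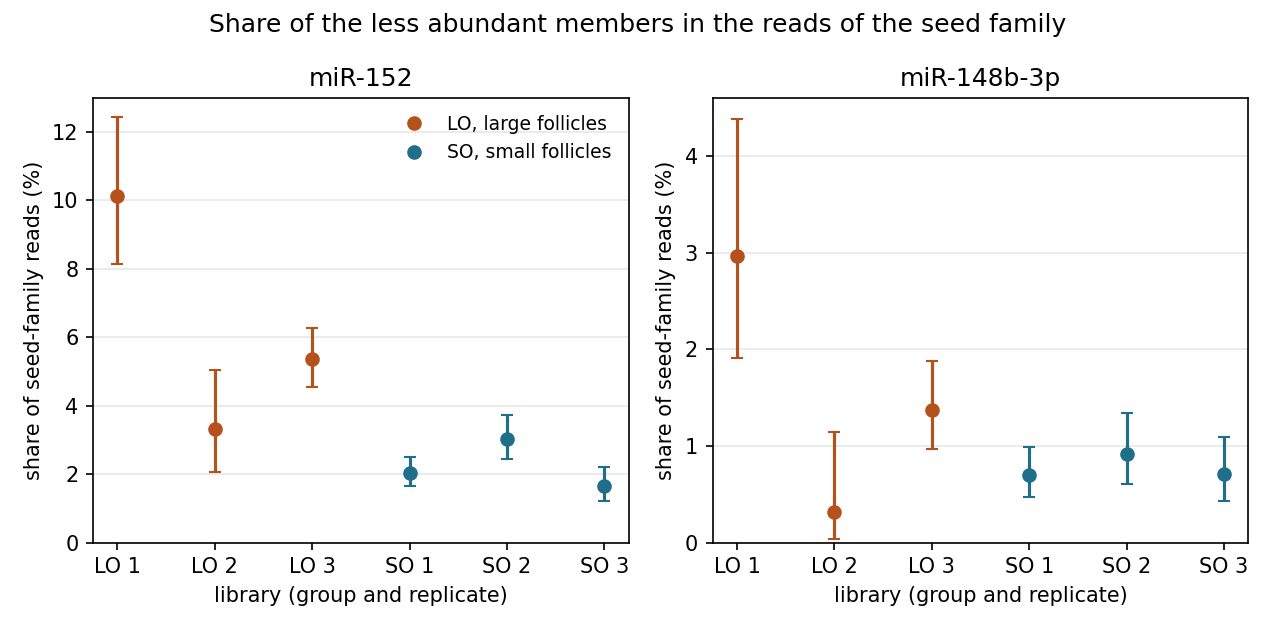
Share of miR-152 (left) and miR-148b-3p (right) in the reads of the 3 members with the shared seed, in percent, for each LO and SO library. Bars are 95% exact Clopper-Pearson intervals; the LO shares of miR-152 run from 3.33% to 10.1% and the SO shares from 1.66% to 3.04%, while the shares of miR-148b-3p overlap between the groups.

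Markers of other cells are given beside these values, and their part in the difference of miR-152 was not tested. All 8 granulosa and cumulus markers had reads, but miR-132, miR-212, miR-224 and miR-383 had only 10, 2, 1 and 1 of the 5160. The 8 summed to 1158, 325 and 764 RPM across LO replicates 1 to 3 and 736, 515 and 392 RPM across SO replicates 1 to 3. Within each group the libraries had the same order in this sum and in miR-152. Over both groups, LO replicate 1 was the highest in both, and LO replicate 2 had the lowest marker sum but not the lowest miR-152. Theca, stroma and smooth muscle markers, 6 of 7 with reads and miR-214 at 0, stood at 73.7 to 132 RPM in LO and 43.9 to 99.2 RPM in SO. Muscle markers, 3 of 4 with reads and miR-133b at 0, stood at 9.83 to 17.4 RPM in LO and 3.66 to 5.74 RPM in SO, and so did not overlap. Endothelial markers (both with reads) ran from 9.13 to 17.4 RPM in LO and 3.20 to 14.1 RPM in SO, and erythroid markers (all 3 with reads) from 4.21 to 5.21 and 1.56 to 4.18 RPM. The erythroid sums did not overlap between the groups either. Few reads stood behind both non-overlaps, 59 in all for muscle and 30 for erythroid markers. The erythroid sum of LO replicate 2, 4.33 RPM, lies under the limit of 6.50 RPM in that library. Among the 104 single names tested, 4 (3.85%) had LO and SO ranges of RPM that were apart. That share covers single names past the filter on low counts and is no like background for sums over lists. The sums of the lists other than muscle and erythroid overlapped. Leukocyte markers (all 4 names with reads) ran from 6.50 to 19.1 RPM in LO and 3.66 to 58.5 RPM in SO, and the liver marker miR-122 from 4.33 to 19.7 and 2.08 to 21.0 RPM. In such bulk samples more cells of a type and more RNA per cell cannot be told apart.

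The miRNAs whose level followed each member most closely were named by the highest Pearson r of log2(RPM + 1) over the 6 libraries, as a description. RPM is scaled to the total of a library and not to its listed miRNA reads, so a shift common to all names can enter each r. The shallow LO replicate 2 enters each r too. For miR-148a-3p they were miR-664-3p (r = 0.93), miR-338 (0.90) and miR-499-5p (0.89), against a median r of 0.23 over the other 103 names. Of these, miR-664-3p and miR-499-5p rest on 110 and 141 reads in all. For miR-152 they were miR-574 (0.98), miR-31 (0.96) and miR-374a-3p (0.96), against a median of 0.68, and miR-574 and miR-374a-3p rest on only 82 and 50 reads. miR-31, a follicle cell miRNA, averaged 310 ± 164 RPM over LO and 175 ± 51.2 RPM over SO (n = 3 per group, SD), a limma log2 fold change of 0.71. Other tested markers of the granulosa and cumulus list ran from near that value to near 0. Their limma log2 fold changes were 0.66 for miR-202-3p (SE 0.73), 0.13 for miR-21 (SE 0.47) and -0.02 for miR-202-5p (SE 0.50). The SE of miR-31 was 0.48, and differences between these markers were not tested. For miR-148b-3p they were miR-34a (0.998), miR-339 (0.99) and miR-320 (0.99), but the median over all names was already 0.80, and miR-34a and miR-339 rest on 137 and 55 reads.

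Related groups were set beside the family. The miR-130 and miR-301 group carries a similar seed moved by 1 base, and its sequences are shown with the run shared with the seed of miR-148a-3p in capitals.
miR-130a: CAGTGCAatgttaaaagggcat
miR-130b: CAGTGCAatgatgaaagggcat
miR-301: CAGTccaatagtattgtcaaagc
In miR-130a and miR-130b the run CAGTGCA filled bases 1 to 7 in place of 2 to 8, and the deposited miR-301 shared only the first 4 bases of it. These names were scarce, with 36 reads of miR-130a, 5 of miR-130b and 0 of miR-301, and none passed the filter. miR-130a averaged 6.30 ± 4.13 RPM over LO and 3.33 ± 1.31 RPM over SO (n = 3 per group, SD).

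The miR-29 group also represses DNA methyltransferases, through another seed. All 3 of its names were tested, none passed an FDR of 0.05 by limma, and each had a higher mean in LO. miR-29a averaged 59.8 ± 31.3 RPM over LO and 32.9 ± 4.76 RPM over SO (n = 3 per group, SD), with a log2 fold change of 0.73. miR-29b and miR-29c had log2 fold changes of 0.40 and 0.60, and the median of the 3 was 0.60 beside 0.29 for all tested names. miR-152 exceeded miR-29a in mean level in each group, and miR-148a-3p exceeded them all.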

How the data were processed

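Small RNA libraries were made with the QIAseq miRNA kit from mirVana RNA, per the labels' protocols. Each deposited table gives 1 value per listed miRNA, named TPM per the file headers. In a library all values were whole multiples of 1 step, so the deposited values were read as RPM (reads per 1000000) and divided by the step. That gave whole reads for 100% of 1135 values above 0 (tolerance 0.01 read). Named in the submitters' processing notes, without roles, are Bowtie2 2.2.2, cutadapt, bcl2fastq, edgeR and the build Sscrofa10.2. Use of the kit's molecular identifiers in counting is not stated in the labels.

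Groups and replicate numbers came from the titles. Within each group, libraries differed beyond sampling noise (chi-square per degree of freedom 2.71 to 16.8). Levels were tested on log2(RPM + 1) with limma 3.58.1 (trended variance, R 4.3.3) and a model of group alone, over the 104 names passing edgeR's filterByExpr, with Benjamini-Hochberg adjustment over all 104. Fold changes on that log2(value + 1) scale can understate the change of low names. Alternatives used edgeR 4.0.16, DESeq2 1.42.0 and limma-voom on the recovered reads. The fitting code was tested on simulated data. Shares, sums and ratios (0.5 read added) were compared by exact permutation, 5 tests in all. Besides the 5 members, the rule named the neighbours of miR-148a-3p in rank, the 3 closest names of each seed-family member by Pearson r, and the miR-130, miR-301 and miR-29 names; other names were chosen after their values were seen. Of the names in that rule, miR-454 was not analysed here. The members and lists were chosen with earlier results of these data known.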

Additional observations from a re-analysis of the deposited data

How the results depend on the processing

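The count of miRNAs past FDR 0.05, which was 0 by limma (4 at an unadjusted p under 0.05), was 2 by edgeR with TMM, 2 by edgeR with DESeq2 size factors, 2 by limma-voom and 0 by DESeq2. Leaving out 1 library gave 0 to 18 calls by limma and 0 to 4 by edgeR with TMM. In those fits the log2 fold change of miR-148a-3p ran from -0.337 to 0.0840 by limma and from -0.697 to 0.0721 by edgeR, turning sign without SO replicate 1 and LO replicate 1. That of miR-148b-3p ran from -0.185 to 1.32 by limma and was above 0 by edgeR. That of miR-152 ran from 0.90 to 1.72 by limma and from 0.78 to 1.27 by edgeR. With 1 library left out, the difference in the family's log2 sum ran from -0.27 to 0.16. The share of miR-148a-3p differed by -6.89 to -2.17 percentage points, the log2 ratio of miR-152 to miR-148a-3p by 0.998 to 1.86 and that of miR-148b-3p by -0.0463 to 1.495. The 5p share of miR-148a differed by -0.0504 to 0.0937 percentage points. With TMM the family's log2 sum differed by -0.34 and with DESeq2 size factors by -0.38, and the cause was not tested for any of these shifts. Whether the replicate numbers pair the libraries cannot be told from 3 libraries per group. Same-numbered deviations from the group means correlated at -0.34, -0.22 and 0.08, and different-numbered ones at -0.29 to 0.43. With the number as a block limma and edgeR each called 0, and miR-152 had FDRs of 0.853 and 0.371. In exact sign-flip tests of same-numbered pairs, whose smallest p is 0.25, the block gave p = 0.75 for the sum (difference -0.0945), 0.5 for the share of miR-148a-3p (-4.80), 0.25 and 0.75 for the ratios of miR-152 (1.46) and miR-148b-3p (0.67), and 1 for the 5p share (0.0286). Depth limits miR-148b-3p and both 5p arms most, since LO replicate 2 held 2, 2 and 0 reads of miR-148b-3p, miR-148a-5p and miR-148b-5p.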
